A study of Mus musculus with 12 samples.

Results

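Bile acid synthesis and transport in mouse liver was described here through 10 genes, which were chosen by name, with earlier results of these data known. They are Cyp7a1, Cyp8b1, Cyp27a1 and Cyp7b1 of bile acid synthesis, the nuclear receptors Nr0b2 and Nr1h4, the transporters Slc10a1 and Abcb11, and the conjugation genes Baat and Slc27a5. All 10 genes were present among the 22322 gene symbols of the deposited tables and all 10 were among the 10799 genes tested. Liver RNA of C57BL/6 mice aged 8 weeks was sequenced in 4 groups of 3 libraries, which were wild type (WT) or lacked Bmal1 in the liver (KO) and were taken 0 h (CT0) or 12 h (CT12) into the circadian day. The WT mice carried floxed Bmal1 alleles without a stated CRE recombinase, the KO mice carried the floxed alleles with a CRE described only as liver-specific, and all groups were moved to constant darkness before the livers were collected. An effect of CRE itself and one of Bmal1 loss therefore cannot be told apart. The treatment note names fewer mice per group than there are libraries, while the paper's methods list liver RNA of 3 KO and 3 WT mice for CT0 and CT12. The p-values therefore measure the spread between these libraries, whatever its source.

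Hepatocytes turn cholesterol into bile acids along a classical route that starts with Cyp7a1 and an alternative route that starts with Cyp27a1 and continues with Cyp7b1. The products are activated and conjugated to taurine or glycine, pumped into bile by the bile salt export pump, and taken back up from portal blood by a sodium-dependent transporter. Bile acids bind the receptor FXR, encoded by Nr1h4, which induces SHP, encoded by Nr0b2, and SHP represses the synthesis enzymes. BMAL1, encoded by Arntl, pairs with CLOCK on E-box sequences to drive the circadian clock, and synthesis of bile acids is known to follow a daily cycle in rodents.

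Values are RPKM, read numbers corrected for transcript length and library size, of the transcript row with the highest mean for each symbol, so levels are per length. Differences and their standard errors (SE) are on the scale of log2(RPKM + 1). The adjusted p-values are from limma, corrected by the Benjamini-Hochberg method over all 10799 tested genes, and a gene is called at an adjusted p under 0.05. The 95% intervals are those of limma for 1 gene at a time. With bulk RNA, fewer cells of a type and less RNA per cell cannot be told apart, and with 2 time points a difference between them does not give a phase or a rhythm.

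The depth recovered from the values was 11467500 to 19023000 reads per library, higher in WT at CT0 (from 16902000) than in the other groups (up to 16128500), and each of the 10 genes had at least 92 reads in every library. Arntl, the targeted gene, measured 16.3, 15.7 and 15.7 RPKM in WT at CT0 and 5.91, 5.73 and 7.45 RPKM in KO at CT0. At CT12 it measured 1.26, 0.680 and 1.21 RPKM in WT and 4.37, 3.59 and 4.01 RPKM in KO, above every WT library at that time. The log2 difference between KO and WT was thus -1.21 ± 0.13 SE at CT0 (adjusted p = 0.000582) and 1.29 ± 0.13 SE at CT12 (adjusted p = 6.26e-05), and a value over the whole transcript does not show the floxed exon. Of 7 intestine or gallbladder markers 3 were at 0 in every library, and the 7 summed to 53.8 to 63.5 RPKM in WT and 27.4 to 46.8 RPKM in KO. Nearly all of this was Fabp2 and Slc10a2, and Slc10a2 was called lower in KO at CT12 (adjusted p = 0.0248). Leaving out 1 library at a time ended that call for 6 of the 12 libraries. The 8 hepatocyte markers were at 29380 to 53366 RPKM in sum in every library, as the liver label requires. Alb, which was called lower in KO at CT0 and at CT12, carried the difference of this sum between KO (29380 to 37881 RPKM) and WT (40130 to 53366 RPKM). The other 7 markers summed to 13252 to 15497 RPKM in WT and 15153 to 16639 RPKM in KO, none of them was called at either time, and 1, Ass1, was called higher in KO on average. The 6 cholangiocyte markers summed to 27.2 to 65.0 RPKM in WT and 88.4 to 152 RPKM in KO, and nearly all of this was Spp1, the 1 of the 4 tested that was called between genotypes, which was higher in KO at each time. The other 5 summed to 0.743 to 3.97 RPKM in WT and 1.39 to 5.82 RPKM in KO. The part of these markers in the results that follow was not tested.

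The promoters of the genes on which the results turn are shown here because BMAL1 and nuclear receptors act through short motifs of this kind. Promoter sequences from RefSeq on the GRCm38.p6 build were matched for 6 of the 10 genes. The start of an entry can differ from that of the transcript row measured, which is on another build. The genes without an entry were Cyp7a1, Cyp7b1, Baat and Slc27a5. Abcb11 and Hsd3b7, a synthesis gene of the wider pathway, are given because their levels fell between CT0 and CT12 in WT, Nr1h4 because its level rose, and Nr0b2 because it held the BMAL1 motif. Each line gives the 250 bases before the start, 5′ to 3′ on the strand of the gene, with capitals for the motifs found.
Abcb11 (chr2:69342617-69342866, minus strand): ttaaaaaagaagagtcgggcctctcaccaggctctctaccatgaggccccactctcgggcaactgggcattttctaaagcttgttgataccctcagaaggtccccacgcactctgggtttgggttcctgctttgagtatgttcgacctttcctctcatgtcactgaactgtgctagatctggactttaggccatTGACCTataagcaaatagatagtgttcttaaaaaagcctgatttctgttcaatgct
Hsd3b7 (chr7:127800359-127800608, plus strand): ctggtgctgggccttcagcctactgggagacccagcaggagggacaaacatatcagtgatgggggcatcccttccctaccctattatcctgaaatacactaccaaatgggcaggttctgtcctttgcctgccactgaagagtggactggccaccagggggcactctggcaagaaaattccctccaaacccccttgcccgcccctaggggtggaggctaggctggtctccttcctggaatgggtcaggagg
Nr1h4 (chr10:89506659-89506908, minus strand): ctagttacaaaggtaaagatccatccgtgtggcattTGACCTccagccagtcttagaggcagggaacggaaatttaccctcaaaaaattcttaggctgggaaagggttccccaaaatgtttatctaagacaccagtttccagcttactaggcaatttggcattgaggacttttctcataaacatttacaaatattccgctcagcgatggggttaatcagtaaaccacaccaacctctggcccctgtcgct
Nr0b2 (chr4:133553126-133553375, plus strand): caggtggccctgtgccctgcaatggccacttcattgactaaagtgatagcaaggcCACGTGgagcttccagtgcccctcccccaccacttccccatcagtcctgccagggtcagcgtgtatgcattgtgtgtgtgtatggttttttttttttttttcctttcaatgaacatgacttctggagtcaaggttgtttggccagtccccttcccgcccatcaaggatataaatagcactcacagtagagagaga

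The motifs were searched on both strands of the 300 bases around the start. The E-box CACGTG was found in Nr0b2, beginning 195 bases before the start, and 7.15% of all 32851 promoters of the same length held it. The nuclear receptor hexamer AGGTCA was found on the minus strand of Abcb11, 56 bases before the start, on the minus strand of Nr1h4, 214 bases before it, and in 1 of 2 promoters of Slc10a1, 87 bases before it. That hexamer was held by 16.3% of all promoters. The D-box TTANGTAA (2.32% of all promoters), the extended hexamer CAAGGTCA (1.56%, which contains AGGTCA) and an inverted pair of AGGTCA 1 base apart (0.00913%) were in none of these windows. Hsd3b7, Cyp8b1 and Cyp27a1 held no motif that was searched. A match is a description of the letters, and a window without one says nothing of binding elsewhere.

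The first question was which of the 10 genes differed between CT0 and CT12 in WT livers. Cyp7a1 and Nr1h4 rose and Abcb11 fell, so 3 of 10 genes were called, 2 higher and 1 lower, where 11.6% of all tested genes were called, 3.71% higher and 7.88% lower. At an unadjusted p under 0.05 there were 6, against 26.9% of all tested genes. The groups did not overlap for 7 of the 10 genes, against 34.1% of all tested genes. In 4 every CT12 library was above every CT0 library (11.2% of all tested genes) and in 3 every CT12 library was below (22.9%). The median log2 difference was -0.056 over the 10 genes and -0.068 over all tested genes.

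The same comparison in KO livers called 0 of the 10 genes, where limma called 2.43% of all tested genes, 1.1% higher and 1.32% lower. At an unadjusted p under 0.05 there were 3, which were Cyp7a1, Cyp7b1 and Abcb11, against 19.9% of all tested genes. The groups did not overlap for 1 of the 10 genes, Abcb11, where 23.2% of all tested genes did not overlap, 11.9% with every CT12 library above and 11.4% with every one below. The median log2 difference was -0.078 over the 10 genes and -0.002 over all tested genes.

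The second question was which genes differed between KO and WT. At CT0 limma called 0 of the 10 genes, where 1.86% of all tested genes were called, 1.02% higher and 0.843% lower, and 3 passed an unadjusted p under 0.05, against 14.2% of all tested genes. At CT12 it called 1 gene, Abcb11, which was higher in KO, where 10.5% of all tested genes were called, 6.97% higher and 3.49% lower. Averaged over both times it called 1 gene, again Abcb11, where the shares of all tested genes were 11.5% in all, 7.44% higher and 4.03% lower. The test of the difference between the time differences (genotype by time interaction, the change in KO minus the change in WT) called 1 gene, Abcb11, where 1.49% of all tested genes were called, 1.07% with a higher and 0.417% with a lower value in KO. At CT12 and on average the share of the 10 genes called was near that of all tested genes. The genotypes did not overlap at CT0 for 1 of the 10 genes, Cyp7a1 (KO above WT), where 20.6% of all tested genes did not overlap, 11.3% with KO above and 9.27% with KO below. At CT12 they did not overlap for 3 of the 10, which were Abcb11 (KO above WT), Nr1h4 and Slc10a1 (KO below WT), where 28.8% of all tested genes did not overlap, 20.4% with KO above and 8.39% with KO below.

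**Figure D1:**
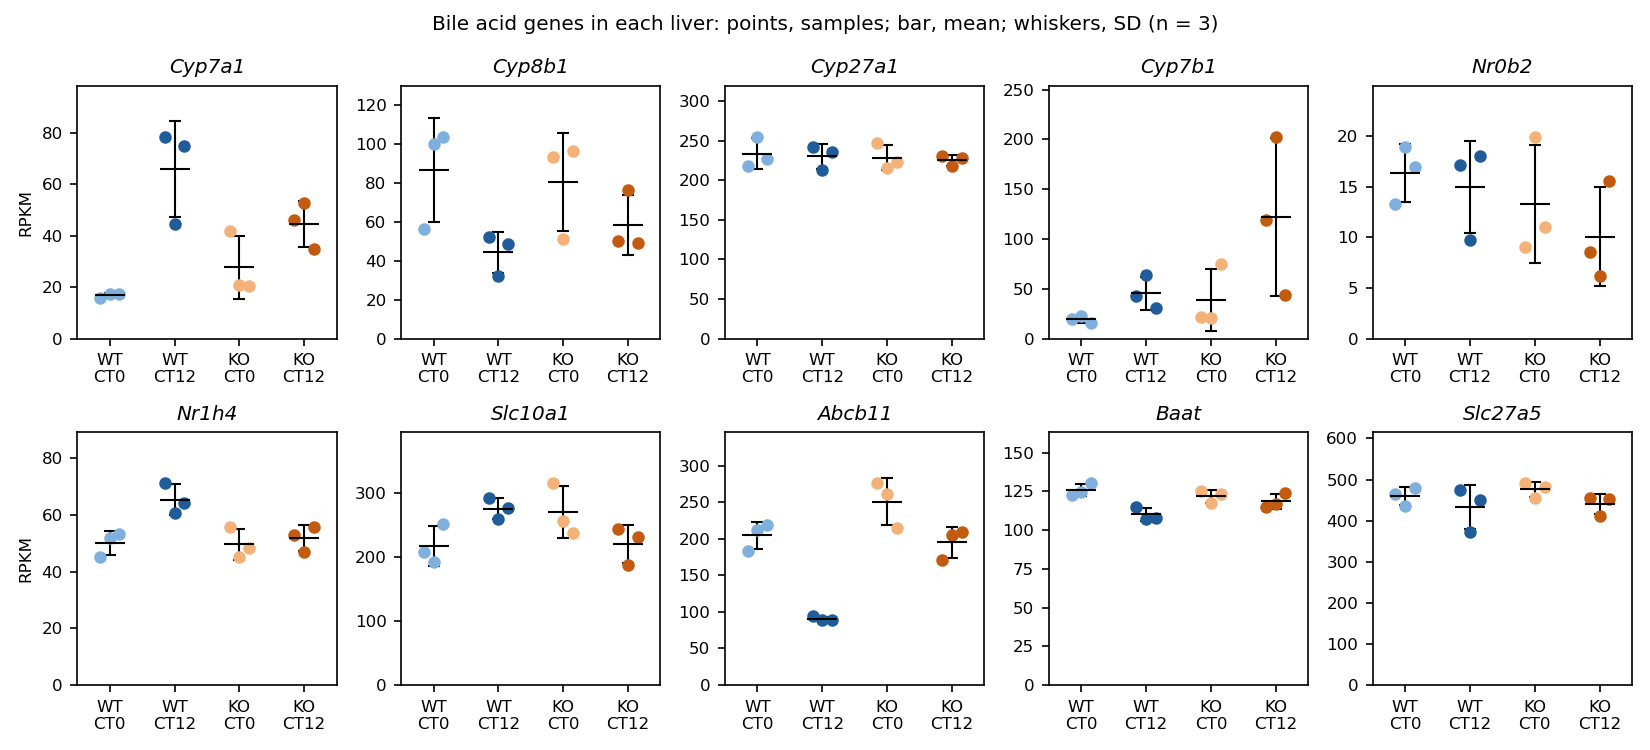
RPKM of the 10 bile acid genes (y axis, from 0) in WT and KO livers at CT0 and CT12 (x axis), with 1 point per library, the mean as a bar and the SD as whiskers (n = 3 per group). The WT libraries at CT12 stand below all others for Abcb11, at 88.4 to 93.9 RPKM, and the WT libraries at CT0 lie close together for Cyp7a1, at 15.9 to 17.3 RPKM, while Cyp7b1 spreads most within groups.

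Of the classical route, Cyp7a1, the rate-limiting enzyme of bile acid synthesis, rose between CT0 and CT12 in WT. Its row was the transcript ENSMUST00000029905 of gene ENSMUSG00000028240, chr4:6192759-6202778 on the minus strand of NCBIM37, with 6 exons. It measured 15.9, 17.3 and 17.3 RPKM in WT at CT0 and 78.6, 44.5 and 74.8 RPKM in WT at CT12. Every CT12 library was above every CT0 library, with a ratio of the means of 3.92 and a log2 difference of 1.87 ± 0.27 SE (adjusted p = 0.00112). In KO it measured 42.0, 20.8 and 20.3 RPKM at CT0 and 46.0, 52.6 and 34.9 RPKM at CT12. Here the groups overlapped through the first CT0 library, and the log2 difference was 0.73 (95% interval 0.14 to 1.32, adjusted p = 0.168). Without that library, KO CT0 replicate 1, the difference in KO was 1.06 (adjusted p = 0.0465).

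The KO libraries of Cyp7a1 were all above the WT libraries at CT0, with a log2 difference of 0.61 (95% interval 0.01 to 1.20, adjusted p = 0.337). This difference was 0.27 (adjusted p = 0.695) without KO CT0 replicate 1, the highest of its group. At CT12 the genotypes overlapped, with a difference of -0.53 (95% interval -1.13 to 0.06, adjusted p = 0.251). The interaction was -1.14 (95% interval -1.98 to -0.30, adjusted p = 0.222). The smaller time difference in KO therefore did not pass the test of the difference itself. The 6 pericentral hepatocyte markers, genes of the liver zone in which Cyp7a1 is enriched, summed to 2870 to 3562 RPKM in WT at CT0 and 4385 to 5192 RPKM in WT at CT12. In KO they summed to 3039 to 3600 and 4145 to 4653 RPKM, and 2 of the 6 were called between times in WT, Cyp2e1 higher and Lgr5 lower. Of all tested genes 3.71% were called higher and 7.88% lower in that comparison. Between genotypes 1 of the 6 was called higher in KO at CT12 (6.97% of all tested genes) and 1 on average (7.44%). Cyp2e1 carried the sum, and the other 5 markers summed to 1034 to 1058 RPKM in WT at CT0 and 1015 to 1186 RPKM in WT at CT12. Their part in the time difference of Cyp7a1 was not tested.

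The genes outside these 10 whose log2 values followed Cyp7a1 most closely over the 12 libraries were Rrp8 (Pearson's r = 0.939), Alas1 (0.938), Eif2b3 (0.933), Amd1 (0.93) and Lrpprc (0.929). These points share groups and libraries, so the values are a description. Alas1, the rate-limiting enzyme of haem synthesis, averaged 36.0 RPKM in WT at CT0 and 572 RPKM in WT at CT12, and 51.6 and 265 RPKM in KO.

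Cyp8b1, the sterol hydroxylase that sets the share of cholic acid, varied widely between replicates. It measured 56.2, 100.04 and 104 RPKM in WT at CT0, 52.3, 32.1 and 48.5 RPKM in WT at CT12, 93.4, 51.4 and 96.7 RPKM in KO at CT0 and 50.04, 76.5 and 49.2 RPKM in KO at CT12. The WT libraries at CT12 were all below those at CT0, whereas the KO libraries overlapped between times. The log2 difference between times was -0.93 (95% interval -1.58 to -0.28, adjusted p = 0.0648) in WT and -0.43 (95% interval -1.08 to 0.22, adjusted p = 0.46) in KO. The difference in WT passed the threshold without WT CT0 replicate 1 (-1.22, adjusted p = 0.0294) and, through the shared estimate of the spread, without KO CT0 replicate 2 (-0.93, adjusted p = 0.0399). Between genotypes it was -0.11 (95% interval -0.76 to 0.54) at CT0 and 0.39 (95% interval -0.26 to 1.04) at CT12. Its row was a transcript of 1 exon at chr9:121823474-121825423, minus strand.

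Of the alternative route, Cyp27a1, the mitochondrial sterol 27-hydroxylase, was the most even synthesis enzyme. Its 12 values ran from 213 to 255 RPKM, so the highest library was 1.20 times the lowest, and all 4 groups overlapped. The means were 233 ± 19.7, 230.05 ± 15.2, 229 ± 16.2 and 225 ± 6.89 RPKM (SD, n = 3) in WT at CT0, WT at CT12, KO at CT0 and KO at CT12. The 4 simple differences were between -0.03 and -0.02 on the log2 scale, with intervals that reached from -0.22 to 0.17. The row lay at chr1:74760148-74784464 on the plus strand, with 9 exons.

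Cyp7b1, the oxysterol 7-alpha-hydroxylase, was the most variable of the 10 genes. It measured 19.3, 22.8 and 15.5 RPKM in WT at CT0 and 42.4, 63.3 and 30.5 RPKM in WT at CT12. In KO it measured 21.4, 20.7 and 75.2 RPKM at CT0 and 119, 203 and 44.2 RPKM at CT12. The WT libraries at CT12 were all above those at CT0, and in KO the third CT0 library was above the third CT12 library. The genotypes overlapped at both times. The log2 difference between times was 1.16 (95% interval -0.03 to 2.35, adjusted p = 0.198) in WT and 1.64 (95% interval 0.45 to 2.83, adjusted p = 0.13) in KO. Between genotypes it was 0.74 (95% interval -0.45 to 1.93, adjusted p = 0.602) at CT0 and 1.22 (95% interval 0.03 to 2.41, adjusted p = 0.19) at CT12, and none of these was called. The difference between times in WT was called when the WT libraries were fitted alone (1.16, adjusted p = 0.0244). Leaving out KO CT12 replicate 3, the lowest of its group, gave 1.82 at CT12 (adjusted p = 0.0494) and 1.28 averaged over both times (adjusted p = 0.0337). Leaving out KO CT12 replicate 2, the highest, gave 0.73 at CT12 (adjusted p = 0.5), and leaving out KO CT0 replicate 3 took the difference at CT0 to 0.14 (adjusted p = 0.94). The SD within groups was 0.81 on the log2 scale, at percentile 99.5 of all tested genes, whose median was 0.16. The row lay at chr3:17971950-18143338, minus strand, with 6 exons.

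**Figure D2:**
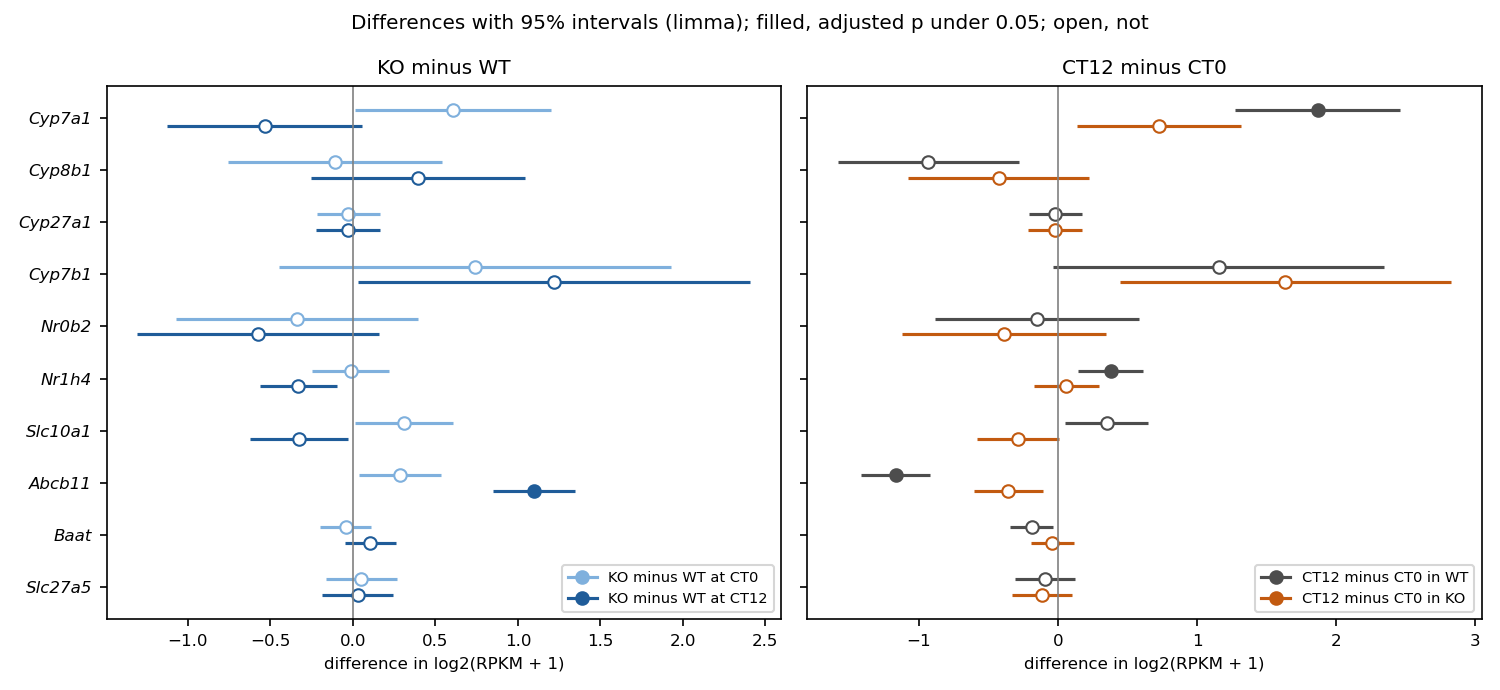
Differences in log2(RPKM + 1) of the 10 genes (x axis) with their 95% intervals from limma, KO minus WT at CT0 and CT12 on the left and CT12 minus CT0 in WT and KO on the right. Filled points had an adjusted p under 0.05 (Abcb11 at CT12 on the left, and Cyp7a1, Nr1h4 and Abcb11 in WT on the right), and the intervals are widest for Cyp7b1 and narrowest for Baat.

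Among the receptors, Nr1h4, which encodes the bile acid receptor FXR, was higher at CT12 than at CT0 in WT. It measured 45.3, 51.9 and 53.1 RPKM in WT at CT0, 71.2, 60.6 and 64.3 RPKM in WT at CT12, 55.7, 45.04 and 48.3 RPKM in KO at CT0 and 53.02, 46.7 and 55.6 RPKM in KO at CT12. The WT libraries at CT12 were above all other libraries. The difference between times in WT was 0.38 ± 0.11 SE (adjusted p = 0.0412), and in KO it was 0.06 (95% interval -0.17 to 0.29, adjusted p = 0.803). The interaction was -0.32 (95% interval -0.65 to 0.01, adjusted p = 0.43). The call in WT did not survive leaving out WT CT0 replicate 1 (0.31, adjusted p = 0.134), replicate 2 (0.40, 0.0828) or replicate 3 (0.42, 0.0683), WT CT12 replicate 1 (0.31, 0.132) or replicate 3 (0.39, 0.0974), or KO CT0 replicate 3 (0.38, 0.054) or KO CT12 replicate 1 (0.38, 0.0508).

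Between genotypes Nr1h4 differed by -0.01 (95% interval -0.25 to 0.22) at CT0 and by -0.33 (95% interval -0.56 to -0.10, adjusted p = 0.074) at CT12. At CT12 every KO library was below every WT library, and the difference was called after quantile normalization (-0.35, adjusted p = 0.0289) and after median-ratio scaling (-0.43, adjusted p = 0.0154). The 3 rows of Nr1h4 had means of 53.7 to 54.2 RPKM, and the one used lay at chr10:88917118-88996330, minus strand, with 10 exons.

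Nr0b2, which encodes the repressor SHP and held the E-box shown above, had the lowest level of the 10 genes. It measured 13.3, 18.9 and 17.0 RPKM in WT at CT0, 17.2, 9.75 and 18.0 RPKM in WT at CT12, 9.01, 20.0 and 11.02 RPKM in KO at CT0 and 8.52, 6.14 and 15.6 RPKM in KO at CT12. All groups overlapped. The difference between genotypes was -0.34 (95% interval -1.07 to 0.39) at CT0 and -0.58 (95% interval -1.31 to 0.16, adjusted p = 0.321) at CT12. Between times it was -0.15 (95% interval -0.88 to 0.58) in WT and -0.39 (95% interval -1.12 to 0.34) in KO. The intervals were wide because the SD within groups, 0.49 on the log2 scale, was at percentile 97.4 of all tested genes. The row lay at chr4:133109291-133112451, plus strand, with 2 exons.

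Among the transporters, Abcb11, the bile salt export pump in the canalicular membrane, had the lowest adjusted p-values of the 10 genes. Its row was the transcript ENSMUST00000102710 of gene ENSMUSG00000027048, chr2:69076339-69180671 on the minus strand, with 28 exons. It measured 184, 212 and 219 RPKM in WT at CT0 and 93.9, 88.9 and 88.4 RPKM in WT at CT12. In KO it measured 277, 261 and 215 RPKM at CT0 and 171, 205 and 209 RPKM at CT12. The WT libraries at CT12 were below all others, and the KO libraries at CT12 overlapped with the WT libraries at CT0.

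Between CT0 and CT12 Abcb11 fell by 1.17 on the log2 scale in WT (SE 0.11, adjusted p = 6.01e-05), a ratio of the means of 0.441. In KO the difference was -0.36 (95% interval -0.61 to -0.11, adjusted p = 0.113), with every CT12 library below every CT0 library. KO exceeded WT at CT12 by 1.10 ± 0.11 SE (adjusted p = 7.97e-05), a ratio of the means of 2.16. At CT0 the difference was 0.29 (95% interval 0.04 to 0.54, adjusted p = 0.262), and KO CT0 replicate 3 overlapped with the WT libraries. The average over both times was 0.69 ± 0.08 SE (adjusted p = 0.000179). These 3 calls, between times in WT, at CT12 and on average, were kept under every alternative that was run.

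The interaction of Abcb11 was 0.81 ± 0.16 SE (adjusted p = 0.0289), so that its time difference was smaller in size in KO than in WT. This call was near the threshold. Leaving out WT CT0 replicate 2 ended it (0.78, adjusted p = 0.0866), as did leaving out WT CT0 replicate 3 (0.76, 0.0758), WT CT12 replicate 1 (0.84, 0.0605), replicate 2 (0.80, 0.0639) or replicate 3 (0.79, 0.0758), KO CT0 replicate 3 (0.70, 0.0623), or KO CT12 replicate 2 (0.77, 0.0826) or replicate 3 (0.76, 0.0724). Blocking on the replicate number gave an adjusted p of 0.0586, and without the filter on low values it was 0.0532. Over all 20 alternatives the value stayed between 0.70 and 0.90 and the adjusted p between 0.0197 and 0.0866.

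Red blood cell markers are given because they were lower at CT12 in WT and higher in KO at CT12, as Abcb11 was. The 5 markers summed to 160 to 379 RPKM in WT at CT0, 107 to 189 RPKM in WT at CT12, 212 to 223 RPKM in KO at CT0 and 245 to 306 RPKM in KO at CT12. Of the 5, 2 were called lower at CT12 in WT (7.88% of all tested genes) and 2 higher in KO at CT12 (6.97%). These were Hba-a2 and Hbb-b2 in both comparisons, and 1, Alas2, was called lower in KO on average (4.03%). Between times in KO the sum of these markers was higher at CT12 in every library while Abcb11 was lower in every library, and none of the 5 was called. The Kupffer cell, stellate cell and endothelial cell markers, 6 each, had 1 gene apiece called lower at CT12 in WT (Emr1, Pdgfrb and Cdh5), and none called between genotypes. In WT between times 7.88% of all tested genes were called lower. At an unadjusted p under 0.05 there were 4, 3 and 5, against 26.9% of all tested genes. The Kupffer cell sum was 121 to 163 RPKM in WT at CT0 and 77.5 to 117 RPKM in WT at CT12. The stellate cell sum was 28.6 to 44.4 and 26.3 to 29.7 RPKM. The endothelial cell sum was 86.5 to 107 and 58.0 to 68.0 RPKM. In KO 1 stellate cell marker was called lower between times (1.32% of all tested genes). Of the 6 periportal hepatocyte markers 2 were called between times in WT, 1 in each direction, against 11.6% of all tested genes. The part of these markers in the result for Abcb11 was not tested.

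Slc10a1, the sodium-dependent transporter that takes bile acids up from portal blood, had time differences of opposite sign in WT and KO, and neither was called. It measured 208, 192 and 251 RPKM in WT at CT0 and 291, 259 and 276 RPKM in WT at CT12. In KO it measured 315, 256 and 238 RPKM at CT0 and 243, 187 and 230 RPKM at CT12. Every CT12 library was above every CT0 library in WT, and the groups overlapped in KO. The difference between times was 0.35 (95% interval 0.05 to 0.65, adjusted p = 0.12) in WT and -0.29 (95% interval -0.59 to 0.01, adjusted p = 0.261) in KO, and the interaction was -0.64 (95% interval -1.06 to -0.22, adjusted p = 0.165). Median-ratio scaling brought the difference in WT past the threshold (0.45, adjusted p = 0.0478). Between genotypes it was 0.31 (95% interval 0.01 to 0.61, adjusted p = 0.32) at CT0 and -0.33 (95% interval -0.63 to -0.03, adjusted p = 0.155) at CT12, where every KO library was below every WT library. The row lay at chr12:82054172-82068971, minus strand, with 5 exons.

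The conjugation genes had narrow ranges. Baat, the enzyme that joins bile acids to taurine or glycine, measured 122, 125 and 130.4 RPKM in WT at CT0, 115, 108 and 108 RPKM in WT at CT12, 126, 117 and 123 RPKM in KO at CT0 and 115, 117 and 124 RPKM in KO at CT12. In WT every CT12 library was below every CT0 library, with a difference of -0.19 (95% interval -0.35 to -0.04, adjusted p = 0.105) that was called after quantile normalization (-0.21, adjusted p = 0.0443). In KO the groups overlapped, with a difference of -0.04 (95% interval -0.20 to 0.11). Between genotypes the difference was -0.04 (95% interval -0.20 to 0.11) at CT0 and 0.10 (95% interval -0.05 to 0.26) at CT12. Its SD within groups was 0.05 on the log2 scale, at percentile 0.444 of all tested genes, so a change of the size seen for Abcb11 lay far outside its intervals.

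Slc27a5, the ligase that activates bile acids with coenzyme A, had the highest level of the 10 genes, with values from 372 to 492 RPKM. The group means were 460 ± 22.6, 433 ± 54.04, 476 ± 19.03 and 439.9 ± 24.7 RPKM (SD, n = 3) in WT at CT0, WT at CT12, KO at CT0 and KO at CT12, and all groups overlapped. The differences between genotypes were 0.05 (95% interval -0.16 to 0.26) at CT0 and 0.03 (95% interval -0.18 to 0.24) at CT12. Between times they were -0.09 (95% interval -0.31 to 0.12) in WT and -0.11 (95% interval -0.33 to 0.10) in KO. The row used was a short transcript of 584 bases and 3 exons at chr7:13578664-13583026, minus strand, and the other rows of the gene averaged 370 and 420 RPKM. Baat lay at chr4:49502692-49515992, minus strand, with 3 exons.

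Averaged over the 12 libraries, the order of the levels was Slc27a5 (452 RPKM), Slc10a1 (245 RPKM), Cyp27a1 (229 RPKM), Abcb11 (185 RPKM), Baat (119 RPKM), Cyp8b1 (67.5 RPKM), Cyp7b1 (56.4 RPKM), Nr1h4 (54.2 RPKM), Cyp7a1 (38.8 RPKM) and Nr0b2 (13.7 RPKM). The ranges of neighbours in this order overlapped, apart from Slc27a5 over Slc10a1 (lowest library 372 RPKM against a highest of 315 RPKM) and Baat over Cyp8b1 (lowest 108 RPKM against a highest of 104 RPKM). Within genes, the highest library was 13.1 times the lowest for Cyp7b1, 4.93 times for Cyp7a1, 3.25 times for Nr0b2, 3.24 times for Cyp8b1 and 3.13 times for Abcb11. For the other 5 genes it was at most 1.68 times the lowest.

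The wider pathway was read from 3 further lists. Of 13 tested genes of bile acid synthesis, 5 were called in KO at CT12, 2 higher and 3 lower, and 4 between times in WT, 1 higher and 3 lower, with none called at CT0 between genotypes or between times in KO. The shares of all tested genes were 10.5% at CT12 (6.97% higher, 3.49% lower) and 11.6% between times in WT (3.71% higher, 7.88% lower). They were 1.86% at CT0 and 2.43% between times in KO. Hsd3b7, which acts directly after Cyp7a1 on the sterol ring, resembled Abcb11. It measured 316, 363 and 379 RPKM in WT at CT0, 103, 108 and 135 RPKM in WT at CT12, 300.4, 351 and 378 RPKM in KO at CT0 and 266, 310.2 and 330 RPKM in KO at CT12. Again the CT12 libraries of WT were below all others. Hsd3b7 fell by 1.61 on the log2 scale between times in WT (adjusted p = 1.29e-05), was higher in KO at CT12 by 1.39 (adjusted p = 3.82e-05), and had an interaction of 1.43 ± 0.18 SE (adjusted p = 0.00227) that was kept under all 20 alternatives.

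Akr1c14, a steroid dehydrogenase, differed in the other direction. It measured 137, 161 and 175 RPKM in WT at CT0, 319, 255 and 297 RPKM in WT at CT12, 168, 173 and 191 RPKM in KO at CT0 and 149, 191 and 178 RPKM in KO at CT12, so the WT libraries at CT12 were above all others. The differences were 0.88 between times in WT (adjusted p = 0.000874) and -0.75 between genotypes at CT12 (adjusted p = 0.00223), and the interaction was -0.92 ± 0.17 SE (adjusted p = 0.0234), which was lost without WT CT0 replicates 1 or 2, WT CT12 replicates 1 or 3, KO CT0 replicate 3, or KO CT12 replicates 1 or 3 (values from -0.94 to -0.82, adjusted p 0.0501 to 0.0661). Cyp2c70, the enzyme behind muricholic acids, was higher in KO at CT12 (0.66, adjusted p = 0.0302), a call lost without WT CT12 replicates 2 or 3 or KO CT12 replicates 1 or 2 (0.60 to 0.64, adjusted p 0.0889 to 0.105). Cyp39a1, an oxysterol hydroxylase, was lower (-0.80, adjusted p = 0.0141), a call lost without WT CT12 replicate 2 or KO CT12 replicates 1 or 2 (-0.75 to -0.72, adjusted p 0.0509 to 0.0572). Hsd17b4, a peroxisomal enzyme of side chain shortening, was lower as well (-0.38, adjusted p = 0.0447). Leaving out 1 library ended this call for 10 of the 12 libraries, all but WT CT12 replicate 2 and KO CT0 replicate 1. Averaged over both times, Hsd17b4 was lower in KO (-0.41, adjusted p = 0.00455) and Cyp2c70 was higher (0.59, adjusted p = 0.00894). Both of these calls were kept under all 20 alternatives. Slc27a2, an acyl-CoA synthetase, was lower in KO on average (-0.49, adjusted p = 0.0165). Acox2, a peroxisomal oxidase of bile acid intermediates, fell by 0.45 between times in WT (adjusted p = 0.0485), a call lost without any of 10 of the 12 libraries.

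Of 15 tested regulators, 1 was called between genotypes at CT0 (1.86% of all tested genes), Ppara, which was lower in KO. At CT12 3 were called (10.5% of all tested genes). Ppara, the fatty acid receptor, was lower in KO at CT12 by -1.04 (adjusted p = 0.000149), Nr1i3, the xenobiotic receptor CAR, was lower (-0.84, adjusted p = 0.0219), and Fgfr4, the liver receptor for the gut hormone that represses Cyp7a1, was higher (0.84, adjusted p = 0.00864). The call of Ppara at CT0 (-0.62, adjusted p = 0.0238) was lost without any 1 of the 3 WT CT0 libraries, KO CT0 replicate 1 or KO CT0 replicate 3 (-0.62 to -0.59, adjusted p 0.0611 to 0.0965), and that of Nr1i3 at CT12 without WT CT12 replicate 3 or KO CT12 replicates 1 or 2 (-0.81 to -0.68, adjusted p 0.0687 to 0.0897). Averaged over both times, Ppara (-0.83, adjusted p = 6.29e-05) and Nr1i3 (-0.76, adjusted p = 0.00479) were lower in KO, and these calls were kept under all 20 alternatives. Between times in WT 3 were called, all higher at CT12, where 11.6% of all tested genes were called, 3.71% higher. These 3 were Nr1i3 (0.72, adjusted p = 0.0414), Ppara (0.71, adjusted p = 0.00291) and Nr1i2, the xenobiotic receptor PXR (0.62, adjusted p = 0.0164). That of Nr1i3 was lost without any 1 of the 6 WT libraries, KO CT0 replicate 3 or KO CT12 replicate 2 (0.53 to 0.81, adjusted p 0.0531 to 0.144), and that of Nr1i2 without WT CT0 replicates 1 or 3 or WT CT12 replicates 1 or 3 (0.57 to 0.61, adjusted p 0.0531 to 0.0599). Between times in KO limma called 0 of the 15 (2.43% of all tested genes), with 7 at an unadjusted p under 0.05 (19.9% of all tested genes). For the interaction it called 0 (1.49% of all tested genes), with 2 at an unadjusted p under 0.05 (12.3% of all tested genes).

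Of 19 tested genes of transport and detoxification, 3 were called between genotypes at CT0 (1 higher), 7 at CT12 (1 higher), 5 between times in WT (4 higher) and 2 between times in KO (both higher). The shares of all tested genes were 1.86% at CT0 (1.02% higher) and 10.5% at CT12 (6.97% higher). They were 11.6% between times in WT (3.71% higher) and 2.43% in KO (1.1% higher). The carrier Slco1a4 exceeded its WT level by 0.88 at CT0 (adjusted p = 0.0319) and by 0.71 at CT12 (adjusted p = 0.0252). At CT0 that call was lost without any 1 of the 3 WT libraries or KO replicate 3 (0.71 to 0.94, adjusted p 0.0851 to 0.112), and at CT12 without WT replicates 2 or 3 or KO replicates 1 or 3 (0.57 to 0.72, adjusted p 0.0616 to 0.105). Averaged over both times, Slco1a4 was higher in KO by 0.79 (adjusted p = 0.0016), a call kept under all 20 alternatives. Slc10a2, the bile acid transporter best known from ileum and bile ducts and 1 of the intestine or gallbladder markers, ranged from 12.8 to 22.5 RPKM in the 6 WT libraries and from 2.2 to 13.96 RPKM in the 6 KO libraries, and was lower in KO on average by -1.59 (adjusted p = 0.00477). The organic anion transporter Slc22a7 differed by -1.16 between KO and WT at CT0 (adjusted p = 0.023) and by -0.85 between times in WT (adjusted p = 0.0295), and Fabp1, the liver fatty acid binding protein, was lower in KO on average (-1.07, adjusted p = 0.00491). Ugt1a1, which glucuronidates bilirubin, had a difference of -0.55 at CT0 (adjusted p = 0.0341), and Cyp3a11 (0.49, adjusted p = 0.0461) and the sterol exporter subunit Abcg5 (0.33, adjusted p = 0.0211) were higher on average. Ugt1a1 was also lower in KO at CT12 (-0.64, adjusted p = 0.00363) and on average (-0.60, adjusted p = 0.000518), and these calls were kept under every alternative. Between times, Abcg5 (0.62, adjusted p = 0.00534) and the uptake carrier Slco1b2 (0.36, adjusted p = 0.0414) rose in WT, and the phospholipid exporter Abcb4 (0.67, adjusted p = 0.0243) rose in KO. Leaving out 1 library ended the call for 2 of the 12 libraries in Slc22a7 at CT0, 4 in Slc22a7 between times, 7 in Ugt1a1 at CT0, 10 in Cyp3a11, 2 in Abcg5 on average, 8 in Slco1b2 and 4 in Abcb4. Abcb1a, a drug efflux pump at low levels of 0.351 to 2.54 RPKM, differed by -1.10 between KO and WT at CT12 (adjusted p = 0.000357) and rose between times in WT (0.77, adjusted p = 0.00515), and both calls were kept under each of the 20 alternatives that gave a value. Its mean reached 1 RPKM only in WT at CT12 (2.12 RPKM). It was 0.820 RPKM in WT at CT0, 0.594 RPKM in KO at CT0 and 0.438 RPKM in KO at CT12. Abcb1a thus passed the filter on low values only through the group in which it is high, so its calls are a description. Its interaction was -0.92 (adjusted p = 0.0459), and this call was kept without WT CT12 replicate 2 but lost without any 1 of the other 11 libraries (-0.98 to -0.82, adjusted p 0.0611 to 0.114).

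**Figure D3:**
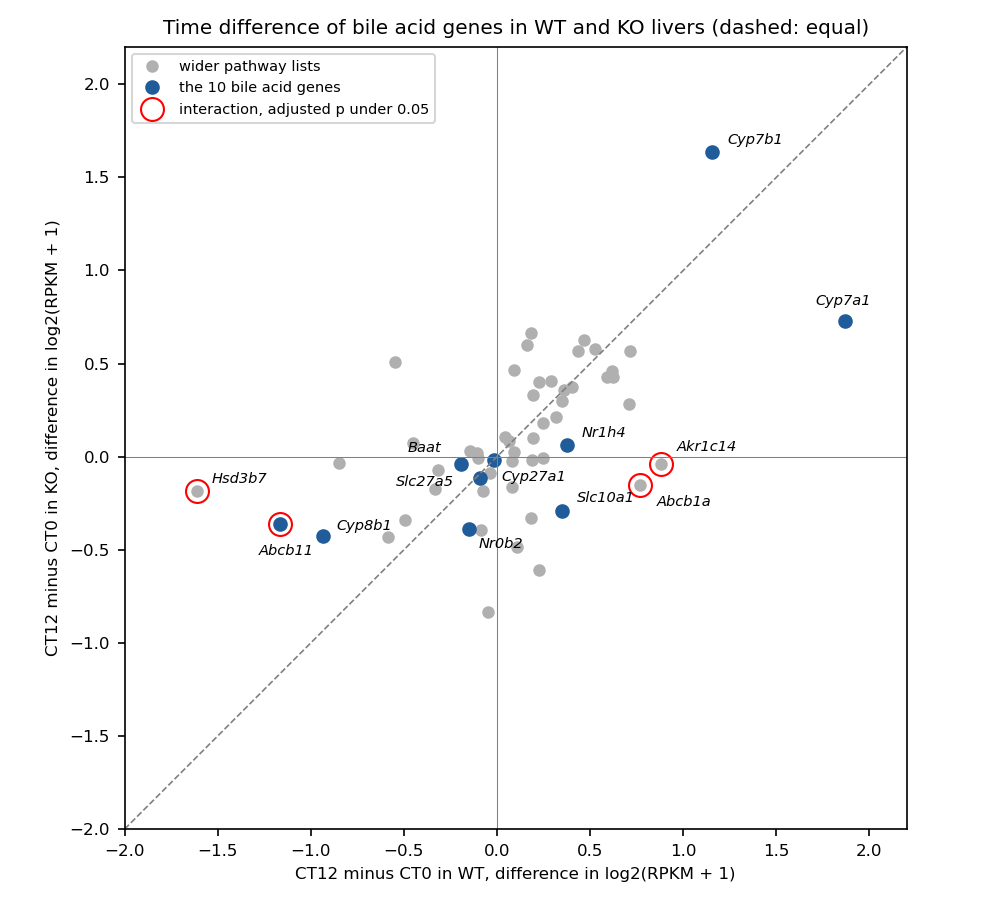
Difference between CT12 and CT0 in log2(RPKM + 1) in WT (x axis) and in KO (y axis), with 1 point per gene for the 10 bile acid genes (blue) and the wider pathway lists (grey), and the dashed line where both are equal. Red rings mark the interactions with an adjusted p under 0.05. Abcb11 (-1.17 in WT, -0.36 in KO) and Hsd3b7 (-1.61 in WT) lie to the left, Akr1c14 and Abcb1a to the right, and Cyp7a1 (1.87 and 0.73) lies below the line without a ring.

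**Figure D4:**
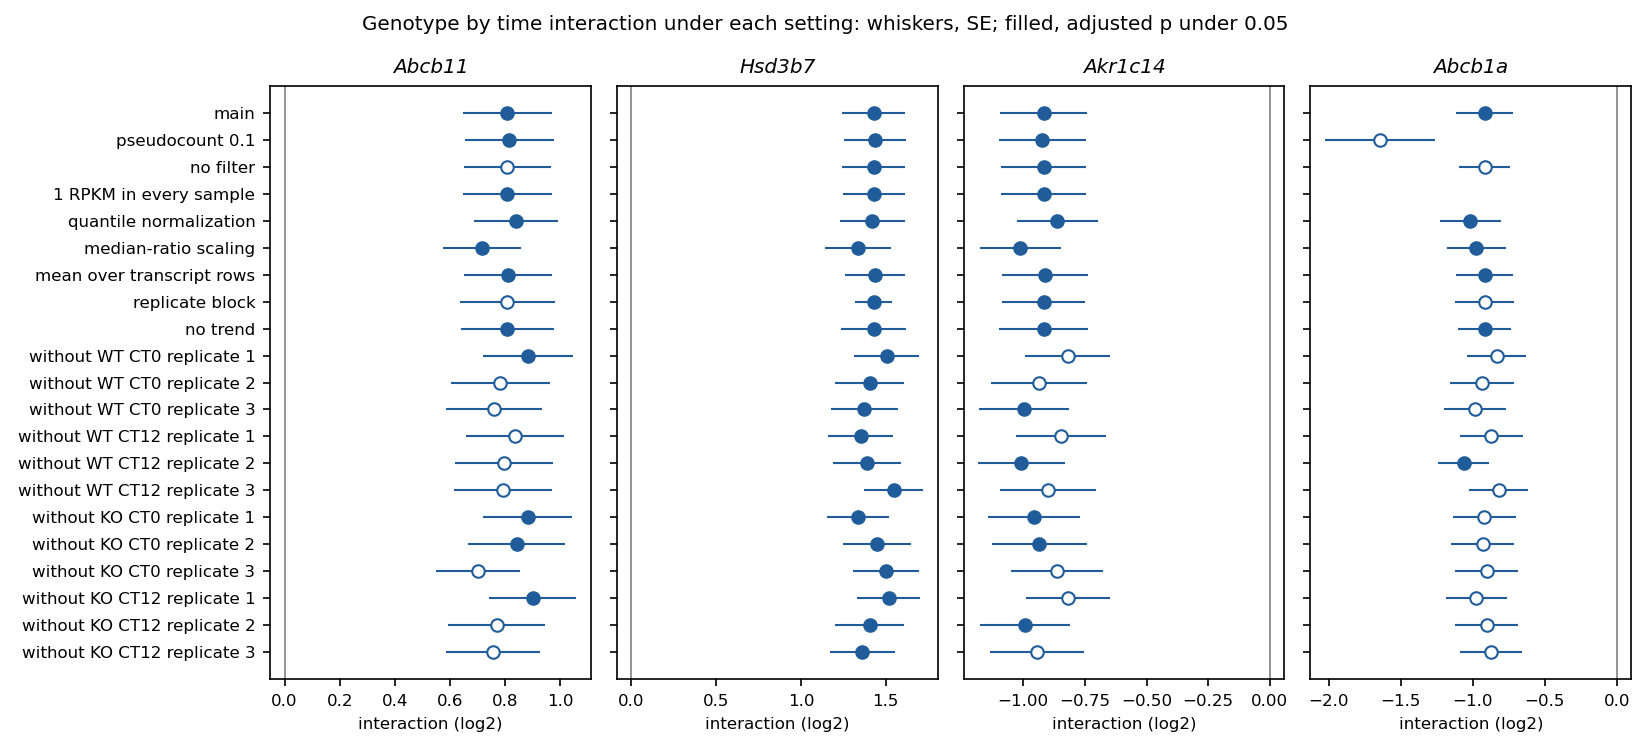
Genotype by time interaction (x axis, log2 scale) of the 4 called genes of the pathway under the reported settings and each alternative (y axis), with the SE as whiskers and filled points for an adjusted p under 0.05. Every value keeps its sign. All points of Hsd3b7 are filled, and 10 of the 20 alternatives for Abcb11 are open.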

How the data were processed

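The authors deposited 1 table of RPKM values per liver library, with 46585 Ensembl transcript rows. The submitters' processing notes name TopHat2, bedtools 2.19.1 and mm9, without their roles, and how reads shared between transcripts were counted is not given in the sources used here. For each symbol the row with the highest mean over the 12 libraries was kept. Genes whose mean reached 1 RPKM in any 1 of the 4 groups were fitted with limma 3.58.1 (R 4.3.3) on log2(RPKM + 1), with 4 group means, a mean-variance trend and 6 contrasts. The pseudocount of 1 understates the change of low genes. The code was tested on simulated data with 200 changed genes. Of changes of 0.5 on the log2 scale it recovered 24% between genotypes at CT0 and 0% for the interaction. Of changes of 1 it recovered 85.5% and 66.5%. With changes of 1, 3.9% of the calls between genotypes at CT0 and 8.3% of those for the interaction were of unchanged genes. Library depth was inferred from the steps between low RPKM values, of which 96.2 to 97.3% lay within 0.1 read of a whole number.

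Groups came from the labels. Replicate numbers were not used to pair the libraries. Of 18 pairs with the same number, 2 had deviations correlated above 0.1. The mean r was 0.0082 for the same number and -0.0041 for different numbers. For 6 of 12 libraries the best match had the same number. With 3 libraries a group this check cannot exclude a pairing. The 10 genes were named in full. Of the wider lists, up to 3 called genes with the largest differences were named for each direction and contrast, apart from 1 gene that is not reported here, and the 5 genes most correlated with Cyp7a1 were added. The genes and lists were chosen with earlier results of these data known. Alternatives were a pseudocount of 0.1, no filter, 1 RPKM in every library, quantile normalization, median-ratio scaling, the mean over transcript rows, a replicate block, no trend, the compared libraries alone, and leaving out each library. Transcript coordinates are from GENCODE vM1 on NCBIM37 and promoters from RefSeq on GRCm38.p6.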

Additional observations from a re-analysis of the deposited data

Results flagged for a closer look

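The genotype by time interaction, the time difference in KO minus that in WT on the log2 scale, was called by limma for 4 genes of the pathway and for 1.49% of all tested genes. It was 0.809 for Abcb11 (adjusted p = 0.0289), with WT libraries at 88.4 to 93.9 RPKM at CT12 and all others at 171 RPKM or more. For Hsd3b7 it was 1.43 (adjusted p = 0.00227). For Akr1c14 it was -0.918 (adjusted p = 0.0234), and for Abcb1a it was -0.918 (adjusted p = 0.0459) at levels under 3 RPKM. Abcb1a passed the filter on low values only through WT at CT12, the group in which it is high. The groups of 3 libraries were too small for a test of outlying samples.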

How the results depend on the processing

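The number of the 10 genes called at CT12 between genotypes was 2 after quantile normalization and 2 after median-ratio scaling, against 1. For the interaction it was 0 without the filter. Blocking on the replicate number left 0 of the 10 genes called for the interaction. Without 1 library at a time the number called was 0 to 0 at CT0, 1 to 2 at CT12, 1 to 2 on average, 2 to 4 between times in WT, 0 to 1 in KO and 0 to 1 for the interaction. Of 6 calls among the 10 genes, 4 were kept under every alternative, which were Cyp7a1 between times in WT and Abcb11 at CT12, on average and between times in WT. The time difference of Nr1h4 in WT was no longer called without the trend (adjusted p = 0.0518) or the filter (0.057). Of 47 calls among the genes that the naming rule picked from the wider lists, 24 were kept throughout. The other calls in these lists were not checked in this way. Requiring 1 RPKM in every library removed Abcb1a, which then had no value. Beyond the comparisons named with their libraries in the report, the cause of these changes was not tested.

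Uncalled values close to 0 changed sign. With quantile normalization the log2 difference was -0.0058 for Slc27a5 at CT0, -0.0033 for Cyp7a1 and -0.0081 for Baat on average, 0.022 for Cyp27a1 between times in WT and 0.028 in KO, and 0.0067 for Cyp27a1 and 0.10 for Slc27a5 in the interaction. With median-ratio scaling it was -0.00045 for Baat and -0.076 for Slc27a5 at CT12, -0.022 for Cyp7a1, -0.029 for Baat and -0.019 for Slc27a5 on average, and 0.082 for Cyp27a1 and 0.0083 for Slc27a5 between times in WT. With the mean over transcript rows it was 0.0033 for Nr1h4 at CT0. Without 1 library at a time the values that changed sign ran, at CT0, from -0.39 to 0.18 (Cyp8b1), -0.083 to 0.039 (Cyp27a1) and -0.097 to 0.053 (Nr1h4). At CT12 they ran from -0.082 to 0.0090 (Cyp27a1) and -0.076 to 0.10 (Slc27a5). On average they ran from -0.13 to 0.12 (Cyp7a1), -0.055 to 0.0058 (Cyp27a1), -0.068 to 0.047 (Slc10a1) and -0.013 to 0.075 (Slc27a5). Between times they ran from -0.068 to 0.048 (Cyp27a1), -0.30 to 0.11 (Nr0b2) and -0.16 to 0.012 (Slc27a5) in WT, and from -0.060 to 0.037 (Cyp27a1) and -0.0063 to 0.14 (Nr1h4) in KO. For the interaction they ran from -0.067 to 0.056 (Cyp27a1), -0.011 to 1.08 (Cyp7b1), -0.57 to 0.076 (Nr0b2) and -0.13 to 0.051 (Slc27a5). With 3 libraries a group, differences of Cyp7b1, Nr0b2, Cyp8b1 and Cyp7a1 are measured less precisely than those of the other 6 genes.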

Other observations

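Over the 12 libraries, log2 values of Cyp7b1 and Nr0b2 ran opposite to each other, with Pearson's r = -0.74, and r = -0.67 after the group means were subtracted. Among the KO libraries at CT12, replicate 2 had the highest Cyp7b1 (203 RPKM) and the lowest Nr0b2 (6.14 RPKM), and replicate 3 had the lowest Cyp7b1 (44.2 RPKM) and the highest Nr0b2 (15.6 RPKM). The pair was picked from 45 pairs after the values were seen, and libraries share depth and groups, so this is a description of these libraries.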
